A study of Mus musculus with 4 samples.

Results

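The type I interferon response genes are transcripts that cells raise after interferon alpha or beta binds its receptor. The 35 genes described here were listed by symbol as interferon-stimulated genes, under a rule that uses no measured value, and all 35 were found among the 26611 Entrez gene numbers of the count table. RNA was sequenced from spleen natural killer (NK) cells, innate lymphocytes that kill infected and tumour cells, of 2 wild-type (WT) mice and 2 Tcf7 knock-out (KO) mice on the C57BL/6 background. Tcf7 encodes the transcription factor Tcf-1, and the series asks what it does in these cells. Each library came from its own mouse, and the cells of both genotypes were sorted as negative for the T cell receptor beta chain and positive for NK1.1, NKp46, CD11b and KLRG1. No treatment is named in the labels, so the values describe NK cells as taken from the spleen. The age and sex of the mice and the way the allele was made are not given in the sources used here.

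Interferon alpha and beta bind a receptor made of the Ifnar1 and Ifnar2 chains, whose kinases Jak1 and Tyk2 phosphorylate Stat2. It joins Irf9 in a complex that binds interferon-stimulated response elements near the start sites of the response genes. The products include sensors of foreign nucleic acid, proteins that block viral translation or degrade viral RNA, and GTPases that act on pathogen-containing vacuoles. Interferon gamma, which NK cells themselves make, acts through a separate receptor and also raises many of these genes, the GTPases above all.

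Levels are given as CPM, the counts of a gene relative to the total counts of its library, scaled by TMM factors that adjust for differences in library composition. The libraries held 28254693 to 40175537 counts, so that before TMM scaling 1 CPM stands for 28.3 to 40.2 counts. The TMM factors were 0.965 to 1.04. KO was compared with WT by edgeR's quasi-likelihood test over all 12723 genes that passed a filter on low counts, with Benjamini-Hochberg adjustment and a threshold of 0.05. With 2 libraries a group an exact permutation test cannot give a p below 0.333, so the edgeR p-values rest on the spread that genes share. Tcf7 itself stood at 89.5 and 79.1 CPM for WT and 11.2 and 25.0 CPM for KO (log2 fold change -2.22, SE 0.45, DESeq2 adjusted p = 0.00216, edgeR adjusted p = 1.00). The NK cell genes Ncr1 and Klrb1c encode NKp46 and NK1.1. They stood at 1510 to 1732 and at 3595 to 4767 CPM over the 4 libraries. Over the same libraries the T cell gene Cd3e stood at 0.239 to 0.610 CPM. Levels differed widely along the T cell list, with Cd8a at 0.0764 to 0.308, Cd3g at 3.29 to 5.42 and Trbc2 at 65.0 to 121 CPM. Another T cell gene, Trac, was called higher in KO by DESeq2 (5.88 and 8.30 CPM for WT and 94.0 and 36.1 CPM for KO), the only one called of the 9 tested on its list. Markers of red cells were higher in both KO libraries. Of the erythroid and platelet list, 7 of 9 genes passed the filter. The summed level of the list was 37.1 and 28.3 CPM for WT and 196 and 123 CPM for KO.

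Of the 35 genes, 33 passed the filter, and the guanylate-binding dynamin-like gene Mx2 (2 to 4 counts a library) and the oligoadenylate synthetase gene Oas2 (2 to 3 counts) did not. The median size of the log2 fold change, sign ignored, was 0.23 over the 33 genes, beside 0.16 over all genes tested. The 2 clearest differences went in opposite directions. Xaf1, which encodes an inhibitor of anti-apoptotic proteins, was 5.07-fold higher in KO cells, and Oas1a, an oligoadenylate synthetase gene, was 2.33-fold lower. The edgeR test called 0 of the 33, where it called 0 of all 12723 genes (0.0%). Unadjusted edgeR p-values were under 0.05 for Xaf1 and Oas1a only, 2 of 33, where 2.84% of all genes tested had such a value. DESeq2 called 1 of the 33, Xaf1, where it called 0.558% of all genes, 0.377% as higher and 0.181% as lower in KO. Limma voom called 0 of the 33, and it did not call the targeted gene Tcf7 either.

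The median log2 fold change (KO minus WT) of the 33 genes was -0.03, beside -0.01 for all genes tested, and 14 were above 0, where 48.2% of all genes were, and 19 below. Their range ran from -1.91 (Ifi44) to 2.34 (Xaf1). Both KO libraries lay above both WT libraries for 4 genes (Xaf1, Igtp, Irf9 and Cmpk2), where 9.64% of all genes tested did so. Both lay below for 9 (Oas1a, Oas1g, Oasl1, Ifit1, Ifit2, Ifih1, Dhx58, Isg20 and Irgm1), where 11.6% of all genes did so. The 13 together compare with 21.2% of all genes. The 95% interval of the log2 fold change lay within -1 and 1, that is within a 2-fold difference, for 16 of the 33 genes, beside 46.1% of all genes tested. Among the other 17, the interval of Xaf1 lay wholly above 1, and for the remaining genes it included a 2-fold difference in at least one direction, so their levels cannot be called similar.

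**Figure D1:**
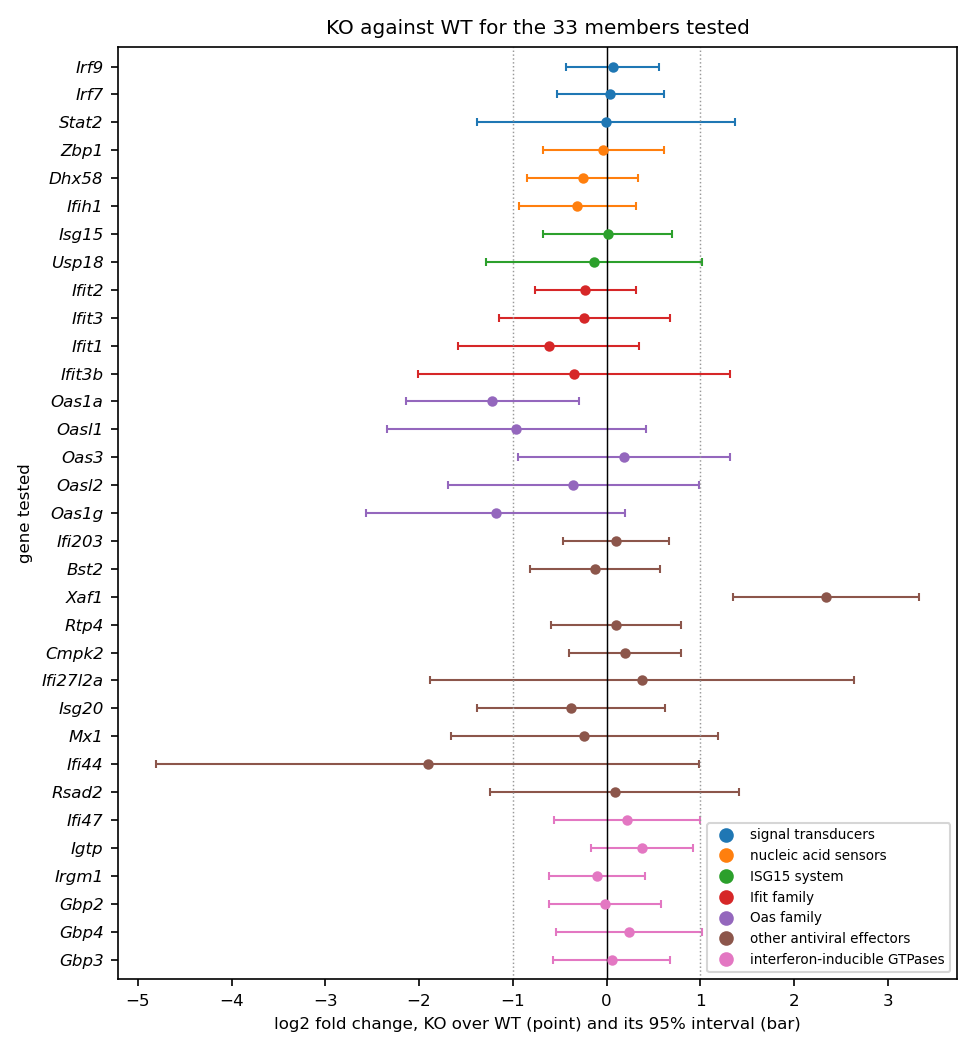
Log2 fold change of KO over WT for the 33 interferon response genes tested, one row a gene, coloured by role; bars are 95% intervals from the edgeR fit (2 libraries a group) and dotted lines mark a 2-fold difference. The interval lies wholly above 0 for Xaf1 and wholly below 0 for Oas1a, and spans 0 for the other 31.

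To set the genes with the clearest differences beside their control regions, promoter windows of 300 bases, from 250 before to 50 after a start site, were taken from RefSeq (GRCm38.p6). Windows were found for 26 of the 35 genes. They were searched on both strands for the core of the interferon-stimulated response element, GAAA and GAAA with any 2 bases between, and neighbouring matches may overlap. It was present in 16 of the 26 genes (61.5%), against 1079 of the 27025 genes with a window (3.99%) and 383 of 9714 genes tested here (3.94%). The bases before the start site are shown for Oas1a and Oas1g, the gene pair with lower counts in both KO libraries, for Xaf1, and for Isg15, whose level differed little, with each match in capitals.
Oas1a: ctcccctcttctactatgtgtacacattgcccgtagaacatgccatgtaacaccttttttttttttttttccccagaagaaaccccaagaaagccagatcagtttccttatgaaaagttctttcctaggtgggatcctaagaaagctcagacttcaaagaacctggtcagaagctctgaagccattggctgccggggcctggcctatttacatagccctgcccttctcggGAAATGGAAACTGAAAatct
Oas1g: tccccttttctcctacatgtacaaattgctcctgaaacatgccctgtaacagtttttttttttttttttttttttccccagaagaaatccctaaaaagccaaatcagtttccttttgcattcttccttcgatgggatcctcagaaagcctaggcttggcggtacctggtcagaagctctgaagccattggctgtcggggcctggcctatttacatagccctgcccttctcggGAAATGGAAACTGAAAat
Xaf1: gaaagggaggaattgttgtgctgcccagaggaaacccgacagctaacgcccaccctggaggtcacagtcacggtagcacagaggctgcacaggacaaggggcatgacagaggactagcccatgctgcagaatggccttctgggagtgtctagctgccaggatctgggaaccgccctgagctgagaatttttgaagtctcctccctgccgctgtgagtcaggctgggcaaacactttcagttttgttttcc
Isg15: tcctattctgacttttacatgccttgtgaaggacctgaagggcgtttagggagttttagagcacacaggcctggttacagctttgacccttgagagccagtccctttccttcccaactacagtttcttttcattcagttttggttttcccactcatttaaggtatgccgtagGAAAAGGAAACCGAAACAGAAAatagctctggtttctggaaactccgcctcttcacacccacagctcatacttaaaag

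The positions are chr5:120907526-120907775 on the minus strand for Oas1a, chr5:120887614-120887863 on the minus strand for Oas1g, chr11:72301379-72301628 on the plus strand for Xaf1 and chr4:156200819-156201068 on the minus strand for Isg15. Oas1a and Oas1g each carried 2 overlapping matches in the same run of letters, first matched 20 and 18 bases before the start site. Isg15 carried 3 overlapping matches, the first 78 bases before it. The Xaf1 window held no match, which says only that these letters are not in this window. Its printed bases run past position 72301461, where the span given for the gene begins. The start site used for Xaf1 therefore lies inside that span. The gamma-activated site TTCNNNGAA, which reads the same on both strands, was present in 5 of the 26 genes (19.2%), Oas1a, Isg20, Bst2, Igtp and Ifit2, against 9.55% of all genes with a window. A core of the Tcf/Lef motif, CTTTGAT on either strand, was found in 0 of the 26, against 4.29% of all genes with a window. A match of letters is a description and not a site of binding.

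Levels of different genes were compared as TMM-scaled CPM per kilobase of gene length (RPKM), averaged over the 4 libraries. The highest was the GTPase gene Ifi47 at 272 RPKM. Next came Ifi203 (48.3), a gene of the interferon-inducible nuclear protein family, Irf9 (40.3), Bst2 (34.0), Igtp (32.8), Irgm1 (32.5) and Irf7 (30.6). Over the libraries Ifi203 lay above Irf9 throughout, whereas the ranges of Bst2, Igtp, Irgm1 and Irf7 overlapped, so those 4 have no order. The lowest were Ifit3b (0.241), Mx2 (0.0369) and Oas2 (0.0191 RPKM). The median over the 33 genes tested was 8.39 RPKM, beside 8.60 RPKM over all genes tested. Of the genes often used as reporters of interferon exposure, Isg15 stood above this median at 11.7 RPKM and the others below it, with Usp18 at 5.66, Ifit1 at 1.14, Mx1 at 0.933 and Rsad2 at 0.516 RPKM.

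**Figure D2:**
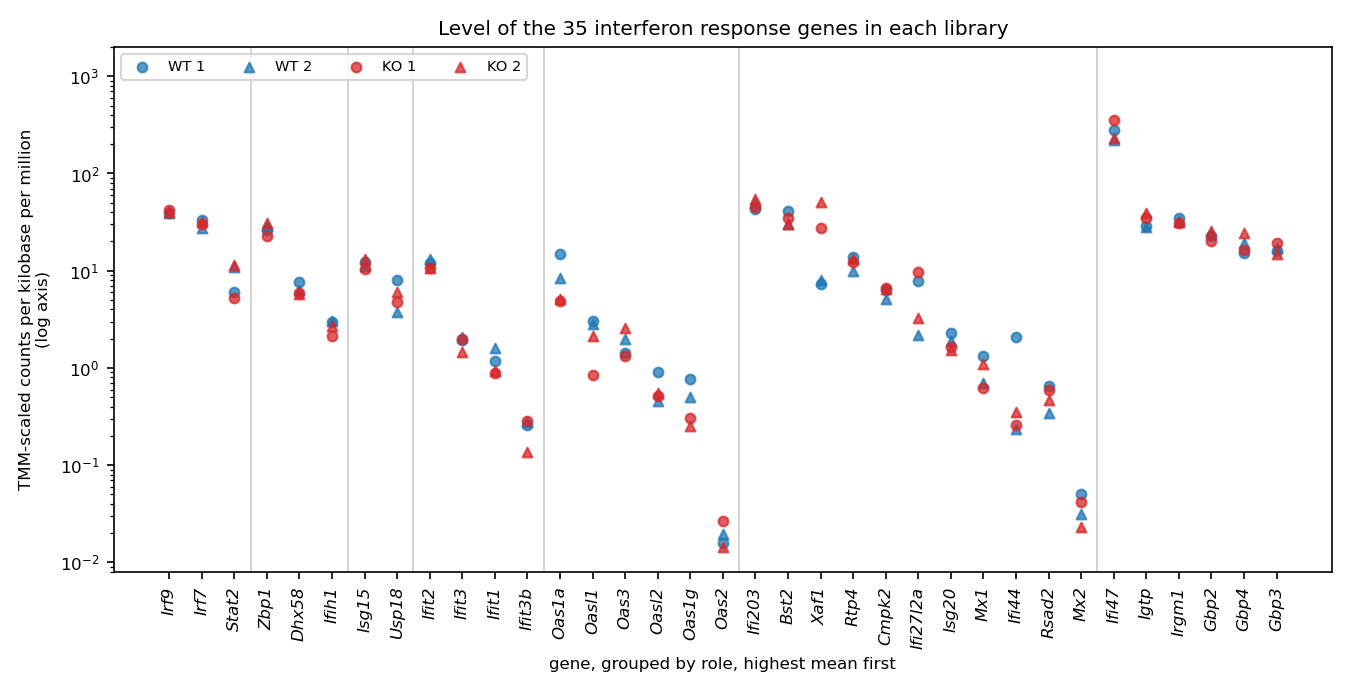
Level of each of the 35 genes in each library as TMM-scaled RPKM on a log axis, grouped by role; blue is WT, red is KO, circles are libraries numbered 1 and triangles libraries numbered 2. Xaf1 is the gene whose red symbols stand far above the blue, Oas1a and Oas1g have both red symbols below the blue, and Ifi44 has the single library WT 1 far above the other 3.

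Among the signal transducers, Irf9 and Irf7 differed little between the genotypes. Irf9, the DNA-binding partner of Stat2, stood at 106 and 105 CPM for WT and 113 and 108 CPM for KO (log2 fold change 0.06, SE 0.19). Irf7, the factor that amplifies interferon production, stood at 61.3 and 50.9 against 56.0 and 59.2 CPM (0.04, SE 0.21). For both, the 95% interval was inside a 2-fold difference. Stat2 stood at 26.4 and 47.7 CPM for WT and 22.8 and 50.8 CPM for KO. Here the library numbered 2 was the higher in each genotype, the 2 groups overlapped fully, and the interval of the log2 fold change ran from -1.38 to 1.37.

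All 3 nucleic acid sensors had a fold change below 0, and none passed edgeR or DESeq2. Ifih1, which senses long duplex RNA, stood at 16.6 and 16.6 CPM for WT and 11.8 and 14.9 CPM for KO (log2 fold change -0.31, SE 0.24). Dhx58, a regulator of that sensor, stood at 18.6 and 15.4 against 14.4 and 14.1 CPM (-0.26, SE 0.22). Zbp1, a sensor of left-handed nucleic acid that can start cell death, stood at 56.8 and 62.3 against 49.7 and 66.6 CPM (-0.03, SE 0.24). Ifih1 and Dhx58 had both KO libraries below both WT libraries, by amounts within the error of the fit, and Zbp1 overlapped. All 3 intervals were inside a 2-fold difference.

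Isg15, a ubiquitin-like protein gene, stood at 9.29 and 8.40 CPM for WT and 7.91 and 9.90 CPM for KO (log2 fold change 0.01, SE 0.26). Usp18, which encodes the protease that removes Isg15 from proteins and dampens receptor signalling, stood at 14.3 and 6.72 against 8.52 and 10.6 CPM (-0.13, SE 0.43). The groups overlapped for both genes, and for Usp18 the 2 WT libraries lay farther apart than the 2 KO libraries.

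The Ifit family, whose proteins bind foreign RNA and hinder its translation, sits in a cluster on chromosome 19. Ifit2 stood at 47.4 and 52.2 CPM for WT and 42.6 and 42.6 CPM for KO (log2 fold change -0.23, SE 0.20). Ifit1 stood at 3.08 and 4.23 against 2.32 and 2.44 CPM (-0.62, SE 0.36). In these 2 genes both KO values were lower than either WT value. Ifit3 (3.85 and 4.20 against 3.96 and 2.88 CPM) and Ifit3b (0.523 and 0.560 against 0.580 and 0.277 CPM) overlapped. The longest transcripts of Ifit3 and Ifit3b in GENCODE M21 share 98.0% of their 1697 aligned bases, so reads can be split or lost between them and their levels are uncertain. All 4 family members had a fold change below 0 (median -0.29), and 0 passed edgeR, had an unadjusted edgeR p under 0.05, or passed DESeq2 or limma voom.

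The Oas family encodes synthetases that make oligoadenylates on binding duplex RNA, which activate the nuclease RNase L, and related proteins of the Oasl type. Oas1a (Entrez gene 246730; mm10 chromosome 5, 120896256 to 120907544) was counted 919 and 631 times in WT and 273 and 351 times in KO. Its level was 28.3 and 16.1 CPM for WT and 9.31 and 9.74 CPM for KO, a mean of 22.2 ± 8.63 against 9.52 ± 0.302 CPM (SD, n = 2 each). Both KO values were lower than either WT value, the KO libraries were close to each other, and WT 1 stood well above WT 2. The log2 fold change was -1.22 (SE 0.35, 95% interval -2.14 to -0.30), with an unadjusted edgeR p of 0.0203, and the p adjusted over all genes was 1.00 with edgeR and 0.492 with DESeq2. Without WT library 1 the log2 fold change was -0.76, and without WT library 2 it was -1.55.

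Its neighbour Oas1g stood at 1.54 and 0.993 CPM for WT and 0.614 and 0.499 CPM for KO, from 18 to 50 counts a library (log2 fold change -1.18, SE 0.52, 95% interval -2.56 to 0.20). The longest transcripts of Oas1a and Oas1g share 97.5% of 1860 aligned bases. Counts of either may therefore include reads of the other, and the 2 genes are not independent observations. Oasl1, which restrains Irf7 translation, stood at 6.40 and 5.98 CPM for WT and 1.81 and 4.52 CPM for KO (-0.96, SE 0.52, 95% interval -2.35 to 0.42). It was lowest in KO 1, and without that library the log2 fold change was -0.45. Oasl2 (2.83 and 1.43 against 1.60 and 1.72 CPM) and Oas3 (6.80 and 9.39 against 6.24 and 12.2 CPM, 0.19, SE 0.42) overlapped. The other Oas1 genes of the cluster with enough counts, Oas1b (2.58 and 2.80 against 2.56 and 2.69 CPM) and Oas1c (10.7 and 7.97 against 10.2 and 7.74 CPM), differed by -0.04 and -0.06 on the log2 scale. These 2 are not among the 35.

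**Figure D3:**
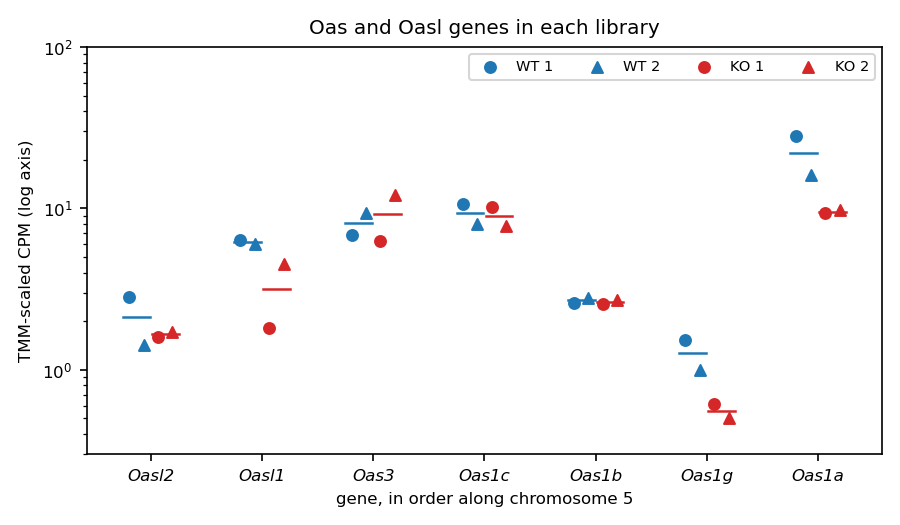
Level of the 7 Oas and Oasl genes tested, in order along chromosome 5, as TMM-scaled CPM on a log axis; symbols are libraries, short lines group means, blue WT and red KO. The KO symbols lie below the WT symbols for Oasl1, Oas1g and Oas1a, and the symbols are mixed for Oasl2, Oas3, Oas1c and Oas1b.

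Xaf1 (Entrez gene 327959; mm10 chromosome 11, 72301461 to 72313733) was the gene that differed most surely among the 35. It was counted 622 and 820 times in WT and 2090 and 4742 times in KO. Its level was 19.1 and 20.9 CPM for WT and 71.3 and 132 CPM for KO, a mean of 20.0 ± 1.23 against 101 ± 42.6 CPM (SD, n = 2 each). Both KO libraries lay far above both WT libraries, which were close together, and KO 2 was the highest. The log2 fold change was 2.34 (SE 0.37, 95% interval 1.35 to 3.33), with an unadjusted edgeR p of 0.00222 and an edgeR adjusted p of 1.00. DESeq2 called it higher in KO (adjusted p = 2.57e-05). The log2 ratio was 1.89 for KO 1 over WT 1 and 2.65 for KO 2 over WT 2, with 0.1 CPM added.

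Which libraries were used decided the call of Xaf1 but not its direction. Without KO library 1 or KO library 2 the edgeR adjusted p was 0.00630 and 0.0379, with log2 fold changes of 2.72 and 1.87, and it was 1.00 without either WT library. The DESeq2 call went when WT library 1 was left out (adjusted p = 0.0677) and stayed without WT library 2 (0.0482), KO library 1 (6.19e-07) or KO library 2 (0.00818). Its nearest tested neighbours within 100 kb, Txndc17 and Med31, differed by 0.20 (SE 0.28) and -0.11 (SE 0.46) on the log2 scale. The next gene on its other side, Fbxo39, had 4 to 10 counts a library.

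Xaf1 lies on the same chromosome as Tcf7, 20.0 Mb from it. Of the 71 genes that DESeq2 called, 12 (16.9%) lay on chromosome 11, which held 1035 of the 12723 genes tested (8.13%). Among these 12 were Tcf7 itself, Xaf1, the red cell genes Hba-a1 and Hba-a2, and the myeloid gene Mpo. The 4 other response genes on that chromosome, Irgm1, Ifi47, Igtp and Dhx58, had log2 fold changes of -0.10, 0.22, 0.38 and -0.26. Markers of other cells also differed between libraries. The summed level of the myeloid and dendritic list, left without 4 genes that these NK cells carry at high level (Itgax, Cx3cr1, Ccr2 and Ly6c2), was 147 and 25.3 CPM for WT and 579 and 88.5 CPM for KO. With those 4 genes it was 3125 and 2660 against 3733 and 3196 CPM, and 15 of its 17 tested genes were above 0. The 4 genes were left out after the values were seen. The erythroid sum in KO 1 and KO 2 was 196 and 123 CPM, and the level of Xaf1 in them was 71.3 and 132 CPM. The part of other cells, or of the chromosome, in the Xaf1 difference was not tested. In sorted bulk RNA, a different share of cells and a different amount of RNA per cell cannot be told apart.

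The other antiviral effectors did not pass either test. Ifi203 stood at 163 and 190 CPM for WT and 173 and 206 CPM for KO (log2 fold change 0.10, SE 0.21). Bst2, which encodes tetherin, a membrane protein that holds budding virus, stood at 31.4 and 23.1 against 26.8 and 23.3 CPM (-0.12, SE 0.26). Rtp4, a chaperone of receptors that also restricts viruses, stood at 21.6 and 15.5 against 19.2 and 20.6 CPM (0.10, SE 0.26). For these 3 genes the groups overlapped and the interval was inside a 2-fold difference. Cmpk2, a mitochondrial nucleotide kinase gene, stood at 20.0 and 16.4 against 20.9 and 20.9 CPM (0.20, SE 0.22), and Isg20, an RNA exonuclease gene, at 2.68 and 2.19 against 1.94 and 1.80 CPM (-0.38, SE 0.38). Cmpk2 had both KO libraries above both WT libraries and Isg20 both below, by less than the error of the fit allows to be called.

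The remaining effectors had low counts or a library apart from the rest. Rsad2, which encodes the radical enzyme viperin and is a neighbour of Cmpk2, stood at 2.49 and 1.30 CPM for WT and 2.25 and 1.78 CPM for KO. Mx1, a dynamin-like GTPase gene, stood at 3.57 and 1.88 against 1.67 and 2.94 CPM. Both overlapped. Ifi44, a gene of unsettled function, stood at 6.03 and 0.687 CPM for WT and 0.750 and 1.03 CPM for KO. Its log2 fold change of -1.91 (SE 1.09) came from WT 1 alone, which held 196 counts against 22 to 37 in the other libraries, and without that library it was 0.37. Ifi27l2a, a mitochondrial protein gene, stood at 3.60 and 1.02 CPM for WT and 4.47 and 1.53 CPM for KO, with the libraries numbered 1 the higher in each genotype. The myeloid marker sum without the 4 genes had the same order, 147 and 25.3 CPM for WT and 579 and 88.5 CPM for KO. So did the sum of the B and plasma cell markers, 271 and 179 against 537 and 232 CPM, whereas the full myeloid list had another order. The part of these cells was not tested.

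The GTPases, which interferon gamma also raises and which act on vacuoles that hold pathogens, were among the most expressed members. Ifi47 stood at 472 and 371 CPM for WT and 588 and 392 CPM for KO (log2 fold change 0.22, SE 0.29). Igtp stood at 58.9 and 56.4 against 69.9 and 80.3 CPM (0.38, SE 0.20, 95% interval -0.16 to 0.92), and Irgm1, which regulates the other immunity-related GTPases, at 77.2 and 72.7 against 68.7 and 70.8 CPM (-0.10, SE 0.19). Igtp had both KO libraries above and Irgm1 both below the WT libraries, and Ifi47 overlapped. Of the guanylate-binding proteins, Gbp2 stood at 56.4 and 58.3 against 50.0 and 63.1 CPM (-0.02, SE 0.22) and Gbp3 at 41.7 and 44.9 against 50.5 and 39.4 CPM (0.06, SE 0.23). Gbp4 stood at 69.7 and 87.9 against 74.6 and 111 CPM (0.24, SE 0.29). All 3 overlapped. For 5 of the 6 GTPase genes, Gbp4 being the exception, the interval was inside a 2-fold difference.

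Comparing KO with WT within each library number showed where the members' differences depended on the library. Between the libraries numbered 1 the median log2 ratio of the 33 genes was -0.17, with 11 above 0 (45.9% of all genes tested were above). Between those numbered 2 it was 0.10, with 21 above 0 (49.4% of all genes). The sign was the same in both for 17 of 33, beside 57.1% of all genes tested. Oas1a (-1.59 and -0.72), Oas1g (-1.20 and -0.87), Oasl1 (-1.77 and -0.40) and Ifit1 (-0.39 and -0.77) were below 0 in both, and Igtp (0.25 and 0.51) and Xaf1 above. Usp18 (-0.74 and 0.65), Mx1 (-1.05 and 0.62) and Ifi44 (-2.85 and 0.52) had opposite signs. The highest of the 4 libraries was WT 1 for 14 of the 33 genes (19.2% of all genes tested), WT 2 for 4 (24.1%), KO 1 for 6 (32.1%) and KO 2 for 9 (24.7%). The lowest was WT 1 for 3 (14.6%), WT 2 for 12 (23.7%), KO 1 for 11 (35.5%) and KO 2 for 7 (26.3%). The log2 difference between the 2 WT mice was larger than that between genotypes for 20 of the 33 genes, beside 70.6% of all genes tested. Usp18, Ifi44, Mx1, Oasl2 and Rsad2 were among the 20.

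**Figure D4:**
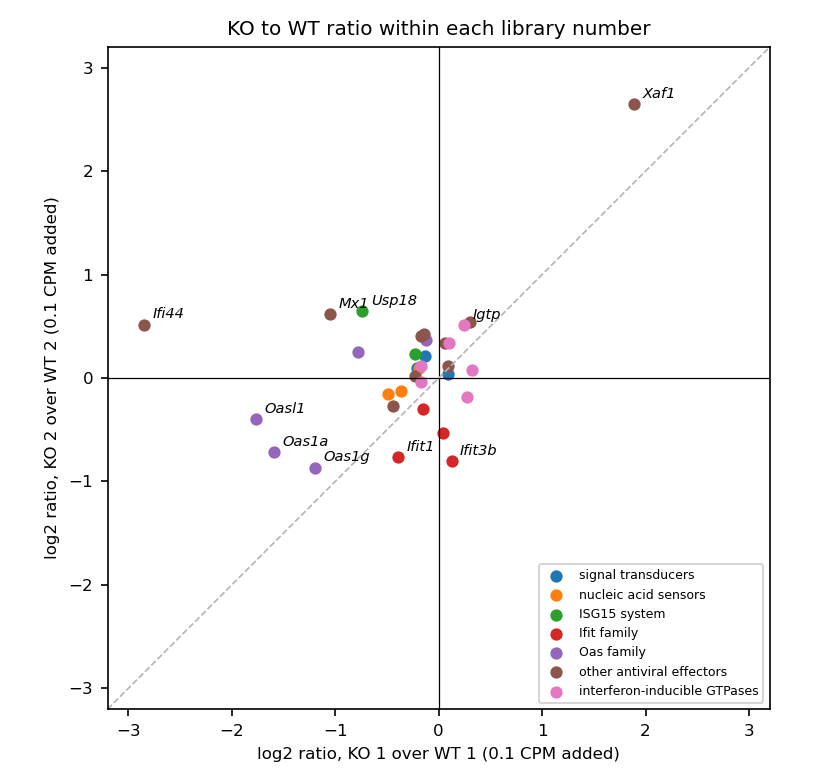
Log2 ratio of KO 1 to WT 1 (x axis) against KO 2 to WT 2 (y axis) for the 33 genes tested, 0.1 CPM added, coloured by role; the dashed line marks equal ratios. Xaf1 stands apart at 1.89 and 2.65, Oas1a, Oas1g and Oasl1 lie below 0 on both axes, and Ifi44, Mx1 and Usp18 lie below 0 on the x axis and above 0 on the y axis.

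The rest of the pathway was read from lists of ligands, receptors, factors, sensors, regulators and further response genes, 134 genes besides the 35, of which 111 passed the filter. None of the 111 passed edgeR or DESeq2, 2 had an unadjusted edgeR p under 0.05 (2.84% of all genes tested did), and their median log2 fold change was -0.0046, with 52 above 0 and 59 below. Both KO libraries lay above both WT libraries for 6 of them (9.64% of all genes) and below for 16 (11.6% of all genes).

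Type I and III interferon ligand genes were at or near 0 in all libraries. Of 20 ligand genes, 15 had 0 counts in every library. Before TMM scaling, 0 counts allow up to 0.0747 to 0.106 CPM (3 counts, counting error only). Ifna11, Ifna16, Ifnl2 and Ifnl3 had at most 1 count a library. The remaining gene, Ifng, which encodes interferon gamma, stood at 60.9 and 44.5 CPM for WT and 66.5 and 63.1 CPM for KO (log2 fold change 0.30, SE 0.25). Both KO libraries were above both WT libraries, with no call by edgeR or DESeq2. It was the ligand that these cells did transcribe at a measurable level.

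Of the receptor and kinase genes, Jak1 and Ifngr1 had the highest CPM. Jak1 stood at 1530 and 2326 CPM for WT and 1131 and 2013 CPM for KO (log2 fold change -0.29, SE 0.39), and Ifngr1, a chain of the interferon gamma receptor, at 1203 and 1255 against 1328 and 1379 CPM (0.14, SE 0.19). The chains of the type I receptor, Ifnar1 and Ifnar2, stood at 97.6 and 130 against 95.6 and 131 CPM and at 121 and 118 against 92.3 and 103 CPM. Ifnar2 had both KO libraries below both WT libraries (-0.29, SE 0.19). Of the 8 receptor and kinase genes tested, 3 were above 0 and 5 below, with a median of -0.02. Ifnar1, Ifnar2, Trim30d, Ddx60, Socs1 and Ifitm3 were singled out after their values were seen.

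Among the regulatory factors, Irf8 (0.07, SE 0.32) and Irf1 (-0.04, SE 0.23) had the highest CPM, and 7 of 9 tested were below 0 (median -0.13). Among 13 sensors and adaptors, Sting1, the adaptor for cytosolic DNA, differed by 0.05 (SE 0.19) and Zc3hav1, a zinc finger antiviral protein gene, by 0.01 (SE 0.22), with 8 above 0 and a median of 0.01. Of 10 genes listed as negative regulators, 4 were above 0 (median -0.03). That list held the receptor chain gene Ifnar2, which was also counted among the receptor and kinase genes. The phosphatase genes Ptpn1 and Ptpn11 differed by 0.02 (SE 0.28) and 0.07 (SE 0.28). Socs1, the feedback inhibitor of Jak kinases, stood at 26.0 and 34.2 CPM for WT and 31.6 and 66.4 CPM for KO (0.70, SE 0.43). Its KO 2 library was the highest and the groups overlapped.

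Of 60 further interferon-stimulated genes tested, 28 were above 0 and 32 below (median -0.02). The 2 with the highest CPM, Shisa5 and Ly6e, differed by -0.05 (SE 0.23) and -0.13 (SE 0.33). The 2 with an unadjusted edgeR p under 0.05 were both lower in KO. Trim30d, a member of the tripartite motif family, stood at 36.3 and 34.8 CPM for WT and 20.0 and 23.4 CPM for KO (-0.71, SE 0.22, edgeR adjusted p = 1.00). Ddx60, a helicase gene, stood at 14.7 and 7.31 against 5.29 and 4.35 CPM (-1.19, SE 0.43, edgeR adjusted p = 1.00). In both, the KO values were lower than either WT value, and neither passed edgeR or DESeq2 over all genes. Ddx60 had the same order of libraries as Oas1a in WT, with WT 1 the highest.

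Ifitm3, whose protein blocks the entry of viruses, stood at 3.91 and 0.458 CPM for WT and 9.82 and 0.777 CPM for KO (log2 fold change 1.28, SE 1.49). It followed the library number as the myeloid marker Lyz2 did, which stood at 92.7 and 3.31 against 258 and 18.6 CPM. The part of myeloid or other cells in it was not tested. Of 11 other GTPase genes tested, 6 were above 0 (median 0.09), with Irgm2 at 0.20 (SE 0.23) and Gbp9 at 0.09 (SE 0.23). Plasmacytoid dendritic cells, the main source of type I interferon in spleen, were represented by Siglech at 0.400 and 0 CPM for WT and 0.443 and 0 CPM for KO. The sum of their 8 markers was 63.6 and 68.1 against 57.4 and 62.5 CPM, most of it from Tcf4 and from Bst2, itself 1 of the 35 genes. Of the 6 markers tested, 3 were above 0 and 3 below. Cox6a2 had both KO libraries above both WT libraries (1.78 and 1.12 CPM for WT, 6.68 and 2.64 CPM for KO), with no call by edgeR or DESeq2.

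**Figure D5:**
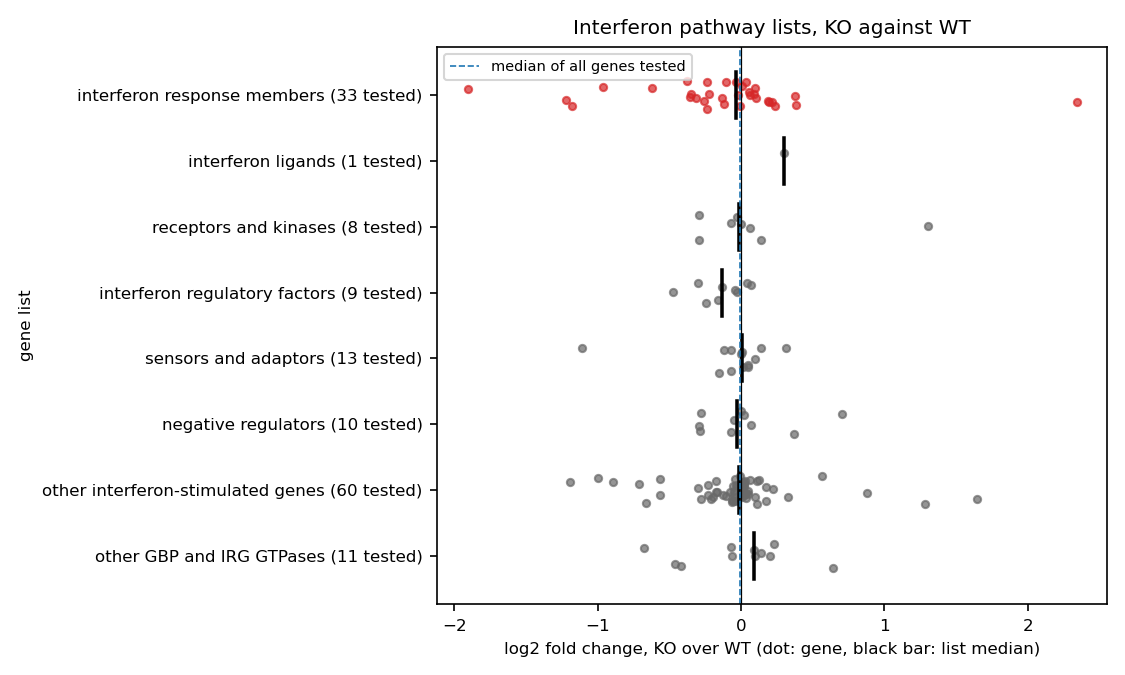
Log2 fold change of KO over WT for the genes tested in each interferon pathway list, one dot a gene (jittered vertically), with the list median as a black bar and the median of all genes tested as a dashed line. The 33 response genes (red) and the other lists with more than 1 gene tested centre near 0, with medians from -0.13 to 0.09. The ligand list has 1 gene tested, Ifng, at 0.30. Xaf1 is the dot at 2.34.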

How the data were processed

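RNA of 4 libraries was analysed. What was deposited are raw counts for each Entrez gene number, in whole numbers, plus its length. Reads were counted with featureCounts (mm10), as the submitters' processing notes name them, and the aligner, versions and strand setting are not given in the sources used here. Reads from overlapping or antisense genes cannot be told apart if counting ignored strand. The series table and the 4 sample files held the same counts, and no library was a copy of another (chi-square per degree of freedom 34.6 to 266 over pairs).

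RefSeq symbols (GRCm38.p6) were matched for 25275 of 26611 gene numbers (95.0%), and genes without one (1.23% of counts) stayed in the tests. The filterByExpr rule of edgeR, with a minimum count of 10, left 12723 genes. The main test was the edgeR 4.0.16 quasi-likelihood F-test in R 4.3.3 (TMM, robust, genotype as the only term, two-sided, adjusted p under 0.05). The SE is the fold change on the log2 scale over the root of F. DESeq2 1.42.0 and limma 3.58.1 (voom) were alternatives, with other scalings, filters, the replicate number as a block and each library left out. DESeq2 without each library, transcript identities (in place of proteins, not used here), the CTTTGAT motif and the shortened myeloid list were added after seeing the data. The tests were first tested on simulated data.

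The rule for the 35 genes uses no measured value, but it and the lists were drawn up with earlier results of these data known. Named were all 35, Tcf7, and from each pathway list the genes passing the main test or else the 2 with the highest mean CPM, plus genes said to be singled out later. Of the pathway, 1 further gene is not reported here. Marker lists were read as sums: NK cells 29967 to 37836 CPM, T cells 107 to 224 CPM, and B and plasma cells 179 to 537 CPM over the 4 libraries, with the erythroid, myeloid and plasmacytoid sums given beside the results. Floors for 0 counts cover counting error only. The intervals of the fold changes come from the same quasi-likelihood fit as the edgeR p-values, and both take in the spread between mice.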

Additional observations from a re-analysis of the deposited data

How the results depend on the processing

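With n = 2 a group, single libraries set many signs. Over the 33 genes tested, 31 of 132 signs turned when a library was left out and 5 of 221 under the other settings, and none of the turned values was called. Genes called over all genes went from 0 to 35 with no filter on low counts, 71 with DESeq2 and 0 to 53 without each library in turn (0 without either WT library, 33 without KO 1 and 53 without KO 2). Leaving 1 library out leaves a lone one in its arm, assumed to vary like the other group. Response genes called were 1 (Xaf1) with no filter, with DESeq2 and without either KO library, and 0 without either WT library. DESeq2's own counts were 34 to 74 genes and 0 to 1 response genes without each library. The replicate number was no stated pairing, and same-numbered libraries deviated together (r = 0.74 over genes), so the fit with a replicate block is given here only. It called 221 genes of 12723 and 2 response genes, Xaf1 (log2 fold change 2.28, adjusted p = 9.56e-04) and Oas1a (-1.16, 0.0462), and also Trim30d (-0.72, 0.0462).

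The median of the other pathway genes was -0.17 to 0.063 without each library. Tcf7 passed with no filter (-2.20) and DESeq2 (-2.20), and stood at -2.88 to -1.75 without each library. Stat2 turned with DESeq2 size factors (0.013), no filter (0.0050), at least 5 CPM in 2 libraries (0.013) and DESeq2 (0.013), Gbp2 with at least 5 CPM (0.0055), and Ptpn1 with voom (-0.00080) and the block (-0.00076). Without each library in turn, the log2 fold change ran over 0 for Ifi47 (-0.10 to 0.51), Ifi203 (-0.0056 to 0.23), Bst2 (-0.31 to 0.12), Irf7 (-0.073 to 0.17), Zbp1 (-0.23 to 0.16), Gbp2 (-0.16 to 0.14), Gbp4 (-0.046 to 0.50), Gbp3 (-0.13 to 0.26), Rtp4 (-0.10 to 0.36), Isg15 (-0.13 to 0.16), Stat2 (-0.66 to 0.49), Ifi27l2a (-0.59 to 1.54), Usp18 (-0.56 to 0.50), Ifit3 (-0.48 to 0.0085), Oas3 (-0.34 to 0.59), Mx1 (-0.67 to 0.29), Ifi44 (-2.74 to 0.37), Oasl2 (-0.75 to 0.22), Rsad2 (-0.29 to 0.63) and Ifit3b (-0.96 to 0.13). It also did for Jak1 (-0.74 to 0.063), Irf8 (-0.28 to 0.37), Irf1 (-0.21 to 0.16), Zc3hav1 (-0.15 to 0.18), Ptpn1 (-0.26 to 0.28), Ptpn11 (-0.17 to 0.30), Shisa5 (-0.20 to 0.11), Ly6e (-0.50 to 0.19) and Gbp9 (-0.062 to 0.26). The cause was not tested. Mx2, Oas2 and all ligand genes but Ifng had too few counts to be tested. Xaf1 and Oas1a kept their sign under every setting run.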
